A study of Mus musculus with 42 samples.

Results

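Type I interferon-stimulated antiviral genes were followed as one set of 39 mouse genes across adipose stromal cells, adipocytes and regulatory T cells. The genes were taken by symbol from a list of interferon-induced effectors, and all 39 were found among the 55011 genes of the count table. The table held 42 RNA-seq libraries in 15 groups, with 3 libraries in most groups and 2 in the VmSC5-derived VmSC5 and in both groups of floating cells.

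The study asked how regulatory T cells (Treg) of visceral adipose tissue (VAT) act on fat cell formation. All stromal and adipocyte groups came from mice with a Pparg-Tdt allele. VmSC4 and VmSC5, as the labels name the 2 stromal populations, were sorted fresh (fresh VmSC4, fresh VmSC5), sampled after 8 days of adipogenic differentiation (8-day VmSC4, 8-day VmSC5), or recovered after adoptive transfer into other mice as VmSC4-derived VmSC4, VmSC4-derived VmSC5 and VmSC5-derived VmSC5. Floating VAT cells, labelled adipocytes, came from Foxp3-DTR- and Foxp3-DTR+ littermates that all received diphtheria toxin, which kills Foxp3-expressing cells where the receptor is carried. VmSC5 in adipogenic culture were labelled as without or with Treg, or received phosphate-buffered saline (PBS) or oncostatin M (OSM) at 10 ng/mL. The study text speaks of medium conditioned by VAT Treg, and the sample labels do not say whether medium or cells were added. Treg were sorted from epididymal VAT of OSM+/+ mice and of OSMf/f mice whose titles read KO. No Cre driver is named in the labels. Ages are not given, and nothing in the labels tells if the replicates came from different mice or wells, so p-values measure only the spread between these libraries, which may be technical.

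Total counts ranged from 1072147 to 12514783 per library. The labelled cell types carried their markers. A list of 6 stromal genes summed to 39494 to 45365 CPM, that is counts per 1000000 counts of the library, in fresh cells, and a list of 7 adipocyte genes summed to 27159 to 42872 CPM in floating cells and to 30162 to 32907 CPM in the 8-day cultures. Foxp3, the master regulator of Treg, lay between 154 and 359 CPM in the 6 Treg libraries and at or below 0.808 CPM in all others. Osm itself lay at 28.4 to 34.1 CPM in OSM+/+ Treg and at 7.76 to 14.6 CPM in the libraries labelled KO.

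Type I interferons are secreted by cells that sense viral nucleic acid and bind a receptor made of IFNAR1 and IFNAR2. The receptor's kinases phosphorylate STAT proteins, which join IRF9 to form the ISGF3 complex, and this complex binds interferon-stimulated response elements in promoters. The induced proteins block steps of viral growth. IFIT proteins bind viral RNA caps, OAS enzymes make the oligoadenylate that activates RNase L, MX proteins are dynamin-like GTPases, viperin (Rsad2) makes a chain-terminating nucleotide, and ISG15 is a ubiquitin-like tag that USP18 removes. RIG-I (Ddx58) and MDA5 (Ifih1) sense viral RNA, and tetherin (Bst2) holds budding virions at the membrane. IRF7 is both induced by interferon and needed for more of it. Interferon gamma acts through a receptor of its own and shares part of these targets.

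The promoters of members that rose together in the cultures with Treg are shown because the response element can be read in them. RefSeq promoter windows of build GRCm38.p6, running from 250 bases before to 50 bases after the gene's start, matched 27 of the 39 genes by symbol. The core of the interferon-stimulated response element was searched as GAAANNGAAA, which reads TTTCNNTTTC on the other strand, with overlapping matches allowed. It was present in 13 of 27 member promoters (48.1%) and in 1079 of 27025 promoters of all genes (3.99%). The motif of STAT dimers, TTCNNNGAA, which reads the same on both strands, was present in 6 of 27 (22.2%) and in 9.55% of all promoters. Such a match describes letters and is no evidence of binding. In the sequences that follow, written 5′ to 3′ on the gene's strand, capitals mark the matched core, runs of overlapping matches are joined, and each stretch ends at or before the transcription start. The Isg15 stretch lies at chr4:156200850-156200921 on the minus strand, Oas1a at chr5:120907526-120907570 (minus), Bst2 at chr8:71537562-71537627 (minus), Rsad2 at chr12:26456538-26456597 (minus), Ifit3 at chr19:34583348-34583441 (plus) and Ifit1 at chr19:34640760-34640838 (plus).
Isg15: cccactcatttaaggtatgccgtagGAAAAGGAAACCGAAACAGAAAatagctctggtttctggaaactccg
Oas1a: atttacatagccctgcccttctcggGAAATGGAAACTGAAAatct
Bst2: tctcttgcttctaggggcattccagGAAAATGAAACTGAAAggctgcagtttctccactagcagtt
Rsad2: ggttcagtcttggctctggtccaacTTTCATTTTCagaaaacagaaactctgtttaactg
Ifit3: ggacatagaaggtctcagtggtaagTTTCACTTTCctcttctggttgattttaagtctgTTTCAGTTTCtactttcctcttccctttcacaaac
Ifit1: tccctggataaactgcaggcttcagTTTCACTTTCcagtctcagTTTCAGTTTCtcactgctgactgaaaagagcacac
Isg15 held 3 overlapping cores and Oas1a, Bst2, Ifit3 and Ifit1 held 2 each. The 94 bases printed for Ifit3 occur with 0 differences at chr19:34607744-34607837 upstream of its neighbour Ifit3b, a near-identical copy of the gene, so reads of the 2 genes may have been split by the authors' counting and their separate values are uncertain. The same holds for other members of multigene families, such as Oas1a, Ifi204, Trim30a and Phf11d. Parp9 and Dtx3l overlap by 682 bases on chromosome 16, and the strand setting of the counting is not given in the sources used here.

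Across the 15 groups, the median level of the 39 genes was lowest in VmSC5 cultured without Treg, at 5.70 ± 1.33 CPM (SD, n = 3), and highest in VmSC5 cultured with Treg, at 312 ± 28.2 CPM (SD, n = 3). Between them lay, in rising order, OSM at 5.76 ± 0.60 CPM, PBS at 7.77 ± 1.83 CPM, Foxp3-DTR- floating cells at 8.07 ± 0.92 CPM, 8-day VmSC4 at 8.54 ± 4.58 CPM and Foxp3-DTR+ floating cells at 9.29 ± 2.73 CPM. Fresh VmSC5 followed at 17.0 ± 1.6 CPM and fresh VmSC4 at 18.4 ± 1.89 CPM. The 8-day VmSC5 (27.1 ± 20.5 CPM), Osm KO Treg (27.3 ± 1.88 CPM), the 3 transferred groups (27.5 ± 0.24, 28.4 ± 0.62 and 32.3 ± 4.41 CPM for VmSC4-derived VmSC5, VmSC4-derived VmSC4 and VmSC5-derived VmSC5) and wild-type Treg (29.0 ± 0.52 CPM) lay close together. Libraries of neighbouring groups in this order overlapped, save at the step from Foxp3-DTR+ floating cells to fresh VmSC5, at the small step from VmSC4-derived VmSC5 to VmSC4-derived VmSC4 and at the step up to the cultures with Treg. In the 8-day VmSC5, 1 library lay below every other library of the series.

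**Figure D1:**
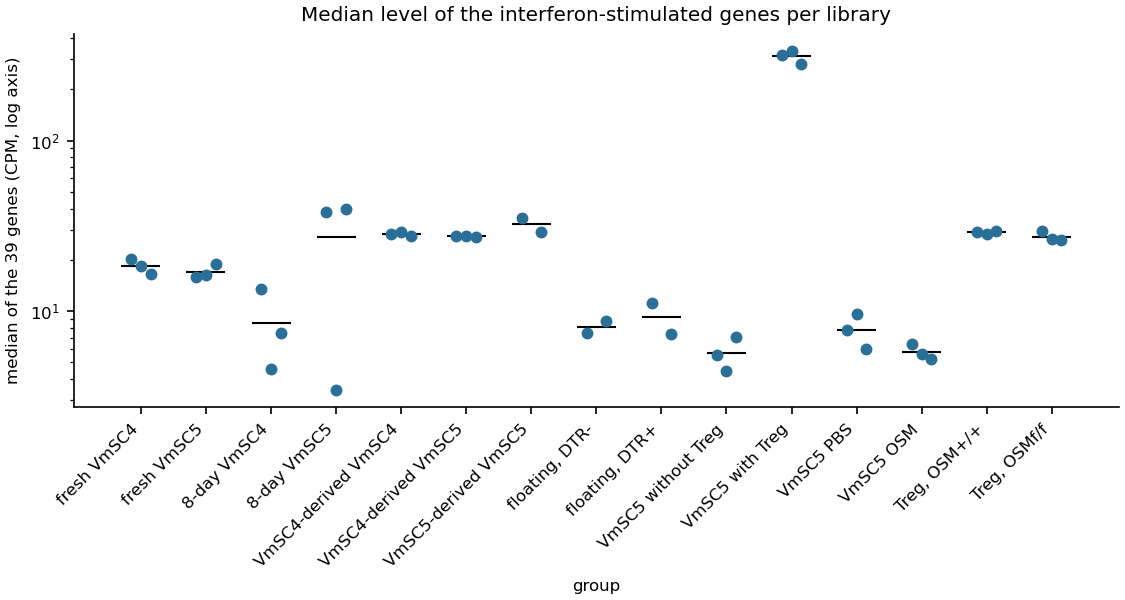
Median CPM of the 39 interferon-stimulated genes in each of the 42 libraries (points, log axis), grouped by the 15 sample groups, with a bar at the group mean. The cultures with Treg sit between 281 and 337 CPM, while the 8-day VmSC5 libraries split into 38.3, 3.44 and 39.5 CPM.

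Per kilobase of exon and averaged over all 42 libraries, the highest members were Lgals3bp, a secreted glycoprotein (328 CPM per kb), Ifi27, a small mitochondrial protein (301), Bst2 (184), Ifit3 (73.9) and Isg15 (62.7). The lowest were Oas3 (3.66 CPM per kb), Oas2 (3.53), Mx2 (3.22), Mx1 (1.99) and Herc6, the mouse E3 ligase for ISG15 (1.80). The means of Bst2, Ifit3 and Isg15 rested largely on the cultures with Treg, where they read 1842, 847 and 741 CPM per kb. In 8-day VmSC5, the next highest group for each, they read 100, 82.0 and 48.5 CPM per kb. Lgals3bp and Ifi27 alone made up 57.7% to 90.3% of the members' summed level in the 8-day cultures, against 22.4% to 25.3% in the cultures with Treg. The members lay on 14 chromosomes, with the 4 IFIT genes on chromosome 19 and the 5 OAS genes on chromosome 5.

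**Figure D2:**
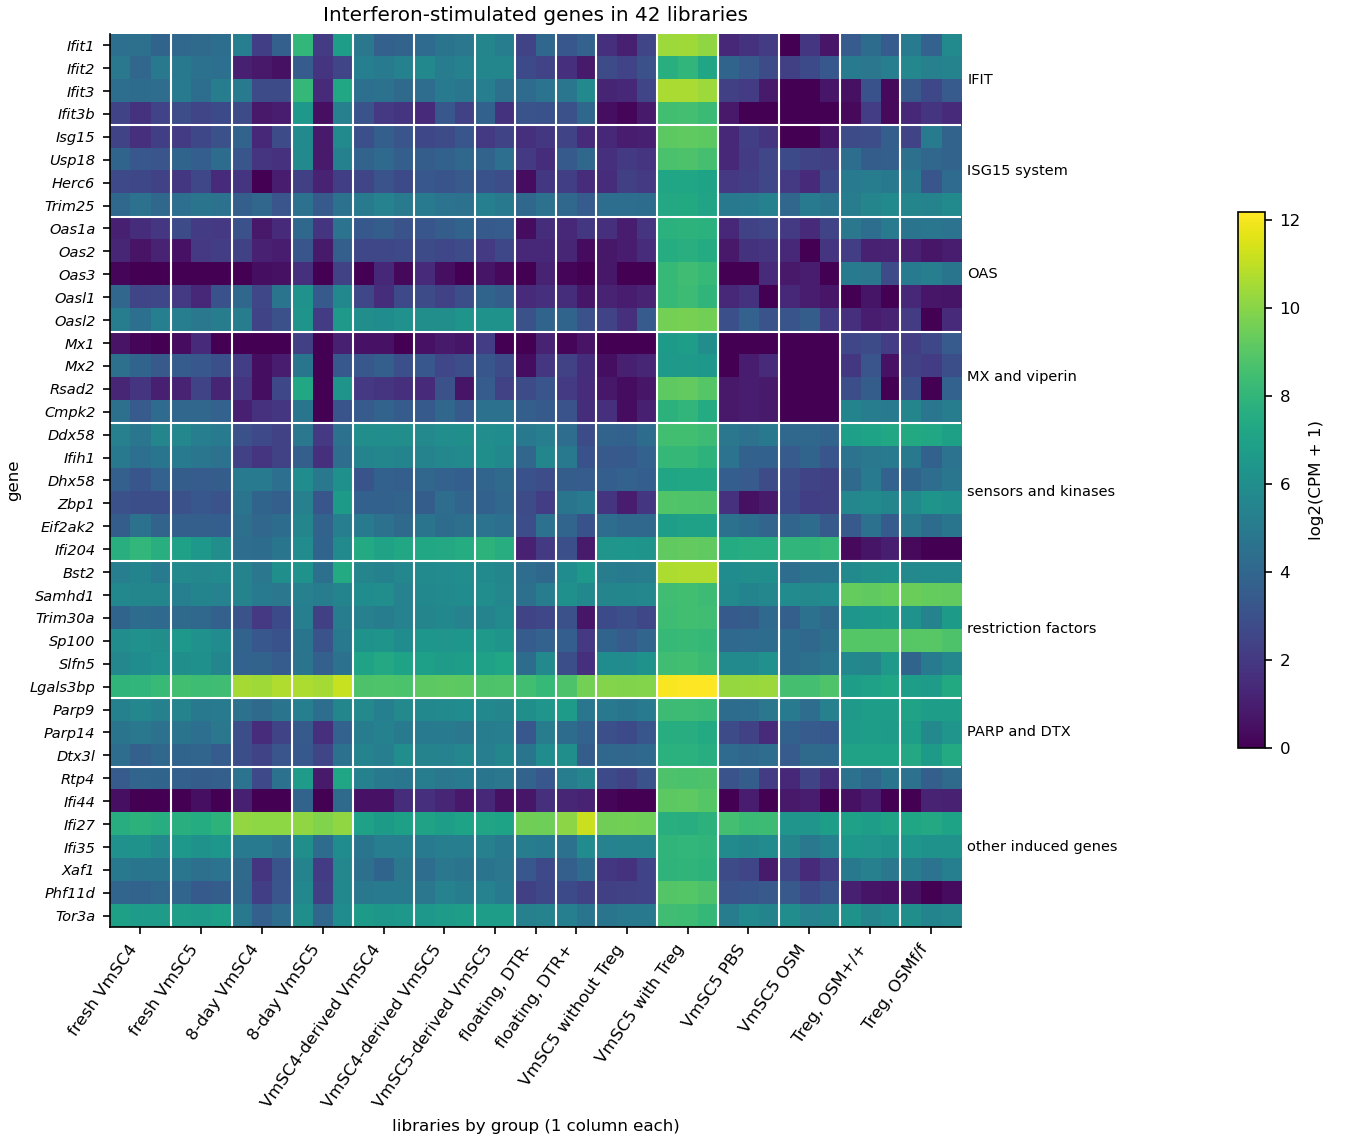
Level of each of the 39 genes (rows, by role) in each of the 42 libraries (columns, by group), as log2(CPM + 1). The cultures with Treg stand out in nearly every row; Lgals3bp and Ifi27 are high in the 8-day cultures, at 1374 to 2225 and 929 to 1164 CPM.

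In VmSC5 cultures with Treg, 38 of the 39 genes rose and 1, Ifi27, fell, by edgeR's quasi-likelihood test with Benjamini-Hochberg adjustment over 12356 genes at 0.05. Of all genes tested, 22.4% were called up and 21% down. The median log2 fold change of the members was 5.86, against -0.003 over all genes tested. Every library with Treg lay above every library without for those 38 genes. How many of all genes were separated in this way was not counted. The called rises ran from 2.24 to 12.74 on the log2 scale, 23 of them at 5 or more.

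Ifit1 stood at 1349, 1368 and 1120 CPM with Treg and at 2.08, 1.07 and 4.73 CPM without. The groups lay far apart, and the log2 fold change was 9.04 ± 0.28 (SE, edgeR adjusted p = 6.39e-06). Isg15 stood at 545, 585 and 551 CPM against 1.56, 0.92 and 1.08 CPM, a log2 fold change of 8.88 ± 0.12 (edgeR adjusted p = 1.85e-36). Its near-silence without Treg and the small spread with Treg made it one of the firmest calls. Usp18, the ISG15 protease and a brake on the receptor, moved from 2.08, 3.22 and 2.58 CPM to 409, 429 and 379 CPM (log2 change 7.26 ± 0.11, edgeR adjusted p = 1.35e-34). All 4 IFIT genes and all 4 genes of the ISG15 system were called up, with median log2 fold changes of 9.16 and 6.38.

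The OAS, MX and viperin genes followed the same direction in 9 of 9 members. Rsad2 stood at 561, 612 and 491 CPM with Treg against 0.695, 0.307 and 0.645 CPM without (log2 change 9.99 ± 0.15, edgeR adjusted p = 1.02e-29). Oas2 stood at 182, 194 and 178 CPM against 0.695, 0.92 and 1.94 CPM (log2 change 7.35 ± 0.15, edgeR adjusted p = 2.62e-31). Neither gene overlapped between the groups. Mx1 had 1993 counts over the 3 libraries with Treg and 0 counts over the 3 without, so that it was at least 504-fold higher, taking 3 counts over the group as the floor. Its call (edgeR adjusted p = 0.0121) was lost without the first library with Treg. Ifi44, an interferon-induced cytoplasmic protein, had 11874 counts against 1 count, a CPM ratio of 9009 with a counting interval of 1617 to 355860 (95%, counting error only).

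All 6 sensors and kinases and all 6 restriction factors were called up. Ddx58 stood at 353, 352 and 321 CPM with Treg against 13.7, 12.6 and 18.5 CPM (log2 change 4.55 ± 0.09, edgeR adjusted p = 5.95e-29). Bst2 stood at 1626, 1663 and 1701 CPM against 33.4, 29.9 and 34.8 CPM (log2 change 5.69 ± 0.07, edgeR adjusted p = 4.01e-37), the smallest p among the members. The median log2 change was 4.09 over the 6 sensors and kinases, which ranged up to 7.81 for Zbp1, and 3.69 over the 6 restriction factors. Other firm calls were Phf11d (log2 change 6.81), Rtp4, a chaperone of membrane receptors (6.21), Trim30a (5.86) and Xaf1, a pro-apoptotic protein (6.23). Lgals3bp showed the smallest called rise, from 965, 917 and 964 CPM to 4234, 4532 and 4583 CPM (log2 change 2.24 ± 0.06, edgeR adjusted p = 1.6e-28).

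Ifi27 was the exception. It stood at 199, 192 and 222 CPM with Treg and at 739, 771 and 714 CPM without, with no overlap, and its log2 fold change was -1.85 ± 0.06 (SE, edgeR adjusted p = 3.20e-24). Of 7 adipocyte genes, 6 also fell in these cultures, and Ifi27 was high in the 8-day cultures (929 to 1164 CPM). Whether the fall of Ifi27 belongs with the fall of adipocyte genes was not tested.

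Among 27 members with a RefSeq promoter, the median log2 fold change with Treg was 6.96 over the 13 that held the response element core and 5.33 over the 14 that did not, and the ranges overlapped widely (2.46 to 10.23 and 2.24 to 12.74). These medians describe the members and were not tested.

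The signalling genes of the pathway rose in 9 of 13 cases and fell in 2. Irf7 stood at 1481, 1542 and 1478 CPM with Treg against 5.38, 5.83 and 6.67 CPM without (log2 change 7.99). Stat2 rose by 4.09, Irf9 by 3.26 and the receptor subunit gene Ifnar2 by 1.46 on the log2 scale. Irf3 and Mavs, which act upstream of interferon production, fell by 0.45 and 0.64 on the log2 scale. All 25 genes of a list of interferon gamma targets rose as well, among them the GTPases Igtp (log2 change 7.76), Irgm1 (5.91) and Iigp1 (5.71) and the immunoproteasome subunit gene Psmb8 (5.54). So did 41 of 41 tested genes of a wider list of interferon-stimulated genes, among them Ly6e, Ifitm3 and Uba7. Ligand transcripts were scarce, as Ifnb1 had 12 counts over the 3 libraries with Treg and 0 over the 3 without, and Ifng had 0 counts in all 6. Of the markers of other cells, Foxp3 and Cd3e were at 0 in all 3 libraries with Treg, and 7 Treg genes summed to 3.20 to 4.31 CPM over the 6 libraries, against 3938 to 4960 CPM in sorted Treg. All 6 stromal genes rose, from a sum of 4017 to 4694 CPM without Treg to 10740 to 12528 CPM with Treg. Of 8 macrophage genes 3 rose and 1 fell, and their sum went down, from 265 to 311 CPM without Treg to 171 to 202 CPM with Treg. All 4 tested genes of a plasmacytoid dendritic cell list rose, from a sum of 76.7 to 82.0 CPM to 1712 to 1773 CPM, of which Bst2, itself a member, made up 1626 to 1701 CPM, while Siglech, a defining gene of that list, was at 0 in the 3 libraries with Treg. The part of these markers in the member values was not tested.

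**Figure D3:**
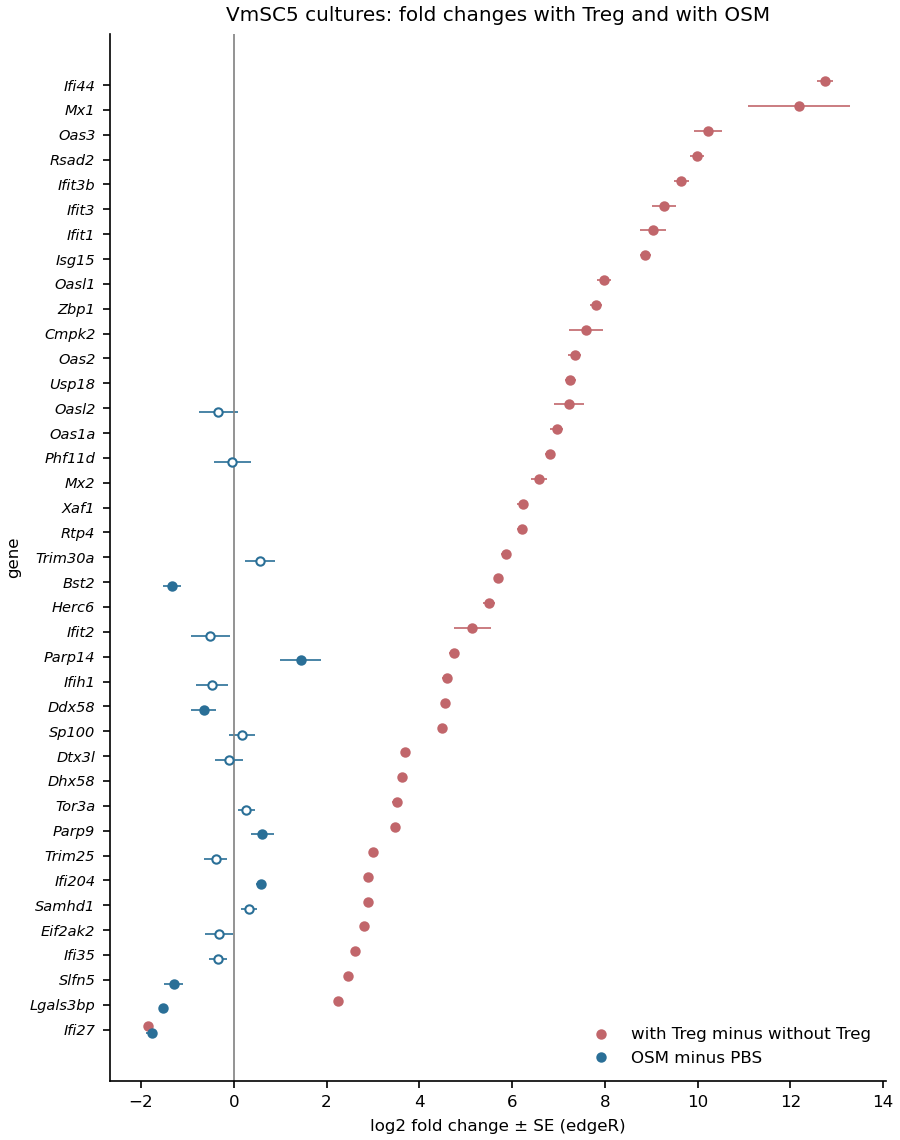
Log2 fold change (points, bars ± SE) of each member in VmSC5 cultures with against without Treg and with OSM against PBS; filled points passed the edgeR test at an adjusted p of 0.05, open points did not. With Treg 38 of 39 genes lie above 0, and with OSM only 20 genes had counts enough to be tested.

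Such a rise was not seen with OSM, a cytokine of the interleukin-6 family that the study examined as a mediator from Treg. Only 20 of 39 members passed the filter on low counts in the OSM and PBS cultures, and of these 3 rose and 5 fell (15% and 25% of those tested), against 22.8% of all genes called up and 23% called down. Their median log2 fold change was -0.33, against 0.00 over all genes. Among the 19 members too low to test, 14 had a lower mean with OSM and 4 a higher mean, with no library above 11.6 CPM.

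Lgals3bp stood at 385, 365 and 453 CPM with OSM and at 1192, 1257 and 1289 CPM with PBS (log2 change -1.53 ± 0.09, edgeR adjusted p = 7.64e-21). Ifi27 stood at 81.0, 79.3 and 109 CPM against 368, 311 and 327 CPM (log2 change -1.77 ± 0.12, edgeR adjusted p = 4.77e-18). Bst2 stood at 19.3, 24.2 and 25.6 CPM against 58.7, 62.5 and 66.5 CPM (log2 change -1.33 ± 0.20, edgeR adjusted p = 1.33e-07). The OSM libraries lay below all PBS libraries for these 3 genes, and also for Slfn5, a member of the Schlafen family (18.5, 21.5 and 26.3 CPM against 54.9, 54.8 and 69.1 CPM). Ifi204, a DNA sensor of the IFI200 family, rose from 178, 188 and 191 CPM to 256, 248 and 270 CPM (log2 change 0.58 ± 0.10, edgeR adjusted p = 1.68e-06), again without overlap. Parp14, an ADP-ribosyltransferase, rose by 1.45 on the log2 scale from low levels (12.8, 10.3 and 9.20 CPM against 6.18, 4.33 and 1.71 CPM). Parp9 (0.61, edgeR adjusted p = 0.0403) and Ddx58 (-0.65, edgeR adjusted p = 0.0420) were called close to the threshold.

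Genes that rose the most with Treg stayed near 0 here. Isg15 read 0, 0 and 0.657 CPM with OSM and 1.55, 3.85 and 2.56 CPM with PBS, Ifit1 read 0, 2.80 and 0.657 CPM against 1.55, 2.41 and 3.41 CPM, Rsad2 had 0 counts in all 3 OSM libraries and Mx1 had 0 counts in all 6. These are low counts at totals of 1072147 to 2078534 per library, and differences of this size were not detectable for most of them. Usp18 (5.62, 4.66 and 3.94 CPM against 1.55, 3.37 and 5.12 CPM) and Oas2 (1.6, 0 and 2.63 CPM against 0.773, 2.41 and 2.56 CPM) overlapped. In the signalling list 3 of 9 genes rose and 3 fell. Mavs and Irf3 fell by 1.34 and 0.40, and Stat2, Ifnar1 and Ifnar2 rose by 0.66, 0.76 and 1.72 on the log2 scale. Of the wider list of interferon-stimulated genes, 12 of 27 rose and 4 fell, led by Ifitm1 (log2 change 6.83), Lgals9 (2.06) and Ifitm3 (1.18), and Ifi27l2a (-4.17). Adipocyte genes fell in 6 of 6 tested cases in the same cultures and 5 of 6 stromal genes rose. All 4 tested endothelial genes rose too, from a sum of 33.2 to 36.1 CPM with PBS to 129 to 158 CPM with OSM. The part of these markers in the member values was not tested.

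The difference between the OSM response and the Treg response was tested in one fit of the 4 groups. It was called negative for 37 of 39 members and positive for 0, against 17.5% and 15% of all 12112 genes tested. Of the 39, 19 were too low to test in the OSM experiment alone. They were tested here under a joint filter that included the high cultures with Treg. For those 19 the difference mostly restates their rise with Treg. The median difference was -5.69 on the log2 scale, against 0.03 over all genes. It was -5.36 with the 5 genes that had 0 counts in a group left out. Bst2 (-6.97 ± 0.16), Phf11d (-6.80 ± 0.38), Ddx58 (-5.16 ± 0.25), Sp100 (-4.27 ± 0.26), Lgals3bp (-3.73 ± 0.10), Slfn5 (-3.71 ± 0.19), Ifi35 (-2.91 ± 0.18) and Ifi204 (-2.27 ± 0.11) had the smallest edgeR adjusted p-values. Usp18 (-6.60) and Oas2 (-7.53) were called too, as were Ifit1, Isg15 and Rsad2, which had 0 or few counts with OSM. Ifi27 was not called (0.12, edgeR adjusted p = 0.54), and it had fallen in both experiments. Mx1 could not be estimated, since it had 0 counts in 3 of the 4 groups. The control cultures of the experiments were not alike: Adipoq, an adipocyte hormone, read 243 to 327 CPM with PBS and 3298 to 3595 CPM without Treg.

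In the 8-day adipogenic cultures the members did not behave alike from library to library. In VmSC5 the 3 libraries had member medians of 38.3, 3.44 and 39.5 CPM, and in VmSC4 of 13.6, 4.60 and 7.45 CPM. VmSC5 replicate 2 lay below replicates 1 and 3 for 39 of 39 genes. Among the 9131 genes with at least 60 counts over the 6 libraries, 30.6% showed this order. For 36 of 39 members VmSC5 replicates 1 and 3 were the 2 highest of the 6 libraries, against 9.0% of the 9131 genes. The 3 exceptions were Lgals3bp, Ifi27 and Samhd1, a dNTP hydrolase that restricts viruses.

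**Figure D4:**
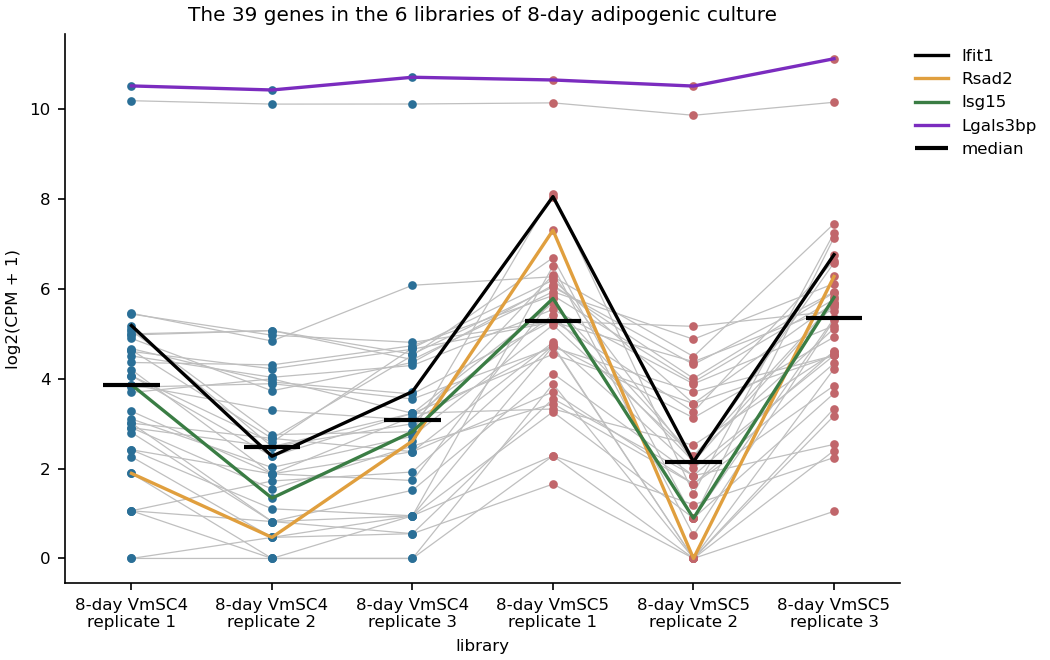
Level of the 39 members, as log2(CPM + 1), in the 6 libraries of 8-day adipogenic cultures. Grey lines join the values of one gene and carry no order of the replicates. Thicker lines mark Ifit1, Rsad2, Isg15 and Lgals3bp, and short black bars the median of each library. VmSC5 replicates 1 and 3 sit above replicate 2 for all 39 genes.

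Ifit1, Ifit3 and Rsad2 ranged widely. Ifit1 read 35.3, 3.84 and 12.1 CPM in VmSC4 replicates 1 to 3 and 264, 3.44 and 107 CPM in VmSC5. Ifit3 read 32.6, 5.76 and 6.05 CPM against 277, 1.72 and 150 CPM. Rsad2 read 2.71, 0.384 and 5.12 CPM against 157, 0 and 76.4 CPM. In each case VmSC5 replicates 1 and 3 were high and VmSC5 replicate 2 was the lowest of the 6, so the groups overlapped fully.

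Several genes of the ISG15 system and the OAS family also had VmSC5 replicates 1 and 3 at the top. Isg15 read 13.6, 1.53 and 6.05 CPM in VmSC4 and 54.2, 0.861 and 55 CPM in VmSC5. Usp18 read 8.69, 2.69 and 2.33 CPM against 54.2, 0.861 and 39.5 CPM. Oasl2, an OAS-like protein, read 33.7, 4.60 and 6.99 CPM against 78.2, 3.44 and 94.6 CPM. VmSC4 replicate 1 was the highest of its group for these genes, as it was for 25 of 39 members (2889 of the 9131 genes), and it lay above VmSC4 replicate 2 for 32 of 39 (4226 of 9131).

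Rtp4 read 23.9, 5.37 and 21.9 CPM in VmSC4 and 102, 0.861 and 140 CPM in VmSC5. Zbp1, a sensor of left-handed nucleic acid that drives necroptosis, read 24.4, 14.2 and 11.6 CPM against 38.3, 8.61 and 97.8 CPM. Bst2 read 42.9, 27.6 and 66.6 CPM against 76.1, 21.5 and 174 CPM. Replicate 1 or replicate 3 could be the higher VmSC5 library, each being the highest of the 6 for 19 members. Of the 9131 genes, 1461 were highest in replicate 1 and 1751 in replicate 3. Replicate 2 was lowest or tied for lowest in 22 members (1250 of the 9131 genes). Over the 27 members with more than 3 counts in VmSC5 replicate 2, the median ratio was 4.16 for replicate 1 over replicate 2 and 4.85 for replicate 3 over replicate 2. The other 12 members had at most 3 counts there, and 6 had 0.

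Some members varied little. Lgals3bp read 1462, 1374 and 1672 CPM in VmSC4 and 1603, 1459 and 2225 CPM in VmSC5. Ifi27 read 1164, 1105 and 1106 CPM against 1126, 929 and 1136 CPM. Samhd1 read 42.4, 30.3 and 27.0 CPM against 37.8, 34.9 and 44.4 CPM. All 6 libraries held these genes at similar levels.

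Other pathway genes moved with the members in part. Irf7 read 21.2, 3.45 and 20.0 CPM in VmSC4 and 84.7, 6.03 and 142 CPM in VmSC5. VmSC5 replicates 1 and 3 were the 2 highest libraries for 7 of 13 signalling genes, 15 of 25 interferon gamma genes, 27 of 43 other interferon-stimulated genes and 0 of 7 adipocyte genes. Beside these values, the total counts of VmSC5 replicates 1 to 3 were 2326279, 2323271 and 1871258, the 7 adipocyte genes summed to 31445, 30661 and 30162 CPM, and 8 macrophage genes summed to 11.6, 12.9 and 19.2 CPM. The plasmacytoid dendritic cell list, which holds Bst2, summed to 115.6, 64.6 and 210.6 CPM. The part of depth and of other cells in the split was not tested. Transcripts of type I interferon ligands were at 0 counts in 5 of the 6 libraries and at 2 counts in VmSC5 replicate 1.

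Between the 8-day groups, 0 of 36 tested members were called, against 0.129% of all genes called up and 0.212% called down in 8-day VmSC5 relative to 8-day VmSC4. Of the 36, 35 had a positive log2 fold change and 16 an unadjusted p under 0.05, with a median of 1.54 against -0.02 over all genes. How many of all genes had such values was not counted. The members are not separate observations here, since VmSC5 replicates 1 and 3 were the highest libraries for most of them. DESeq2 called 1 member. The smallest adjusted p was that of Ifit2 (log2 change 2.95 ± 0.69, edgeR adjusted p = 0.0715), the member called by DESeq2. Of the genes named throughout, Rsad2 (log2 change 4.87 ± 1.53, edgeR adjusted p = 0.417), Usp18 (2.82 ± 1.07, edgeR adjusted p = 0.559) and Ifit1 (2.94 ± 1.16, edgeR adjusted p = 0.582) were not called, nor were Ddx58 (1.61), Isg15 (2.42), Oas2 (1.73) and Bst2 (0.93), and Mx1 was too low to test. Without VmSC5 replicate 2, the library with the lowest member median, the same test called 21 members, all up. The share of all genes called in that fit is not given here. Every other fit without 1 library called 0. With all libraries and no filter on low counts the test called 7, so the count of 0 depended on VmSC5 replicate 2 and on the filter.

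Against fresh VmSC5, 15 of 36 members rose in 8-day VmSC5 and 4 fell (41.7% and 11.1%), where 33.4% of all genes rose and 37.6% fell. The median log2 fold change was 1.15, against -0.18 over all genes. Lgals3bp (2.78 ± 0.14) and Ifi27 (2.81 ± 0.13) rose from 330 to 358 CPM and 186 to 228 CPM in fresh cells to the levels given for the 8-day libraries. Dhx58, the LGP2 regulator of RIG-I, rose from 11, 10.7 and 11.1 CPM to 60.2, 28.4 and 68.4 CPM (log2 change 2.67 ± 0.26, edgeR adjusted p = 6.73e-09). These 3 genes did not overlap between the groups. Rsad2 (5.41), Oasl1 (3.89), Ifit1 (3.24), Isg15 (3.21), Zbp1 (3.00), Oas1a (2.19), Oas2 (1.94) and Eif2ak2, the RNA-activated kinase PKR (1.86), were also called up, with Ifit3, Ifit3b, Phf11d and Rtp4, and of these 12 genes Oasl1 and Eif2ak2 alone had all 3 cultured libraries above the fresh ones. Slfn5, Sp100, Ifit2 and Parp14 fell by 1.18, 1.38, 1.56 and 1.13 on the log2 scale. Bst2 (1.22), Usp18 (1.501) and Ddx58 (-0.74) were not called, and Mx1 was too low to test. With the 2 groups alone in the fit, Ifit1, Ifit3, Ifit3b, Isg15, Oas2, Phf11d and Rtp4 lost their calls. With no filter on low counts Ifit1, Ifit3, Isg15, Phf11d and Rtp4 did, and with a replicate block Ifit1, Ifit3 and Oas2 did. With VmSC5 replicate 2 left out 27 members were called, with replicate 1 left out 13 and with replicate 3 left out 15.

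Against fresh VmSC4, 4 of 36 members rose in 8-day VmSC4 and 9 fell (11.1% and 25%), against 31.9% of all genes called up and 38.5% called down, with a median of -0.31 against -0.23 over all genes. The rises were Ifi27 (3.01 ± 0.13), Lgals3bp (3.05 ± 0.14), Dhx58 (1.83 ± 0.27) and Zbp1 (1.82 ± 0.71, edgeR adjusted p = 0.0445, lost in each fit without 1 of the 6 libraries). Among the falls were Ifit2, which read 28.1, 15.2 and 29.6 CPM in fresh VmSC4 and 1.09, 0.767 and 0.466 CPM after 8 days (log2 change -4.44 ± 0.55, edgeR adjusted p = 2.65e-07), Ifi204 (-2.83), Ifih1 (-2.24), Ddx58 (-2.21), Sp100 (-2.18), Parp14 (-2.05), Tor3a (-1.93), Slfn5 (-1.70) and Herc6 (-1.63, lost in 4 of 6 fits without 1 library). Of the other genes named throughout, Ifit1 (0.31), Isg15 (1.42), Oas2 (1.41), Rsad2 (1.17), Usp18 (-0.72) and Bst2 (0.83) were not called, and Mx1 was too low to test. With the 2 groups alone in the fit, 22 members were called. All 4 genes called up in VmSC4 were also called up in VmSC5, where they were 26.7% of the rises. The 4 genes called down in VmSC5 were also called down in VmSC4, where they were 44.4% of the falls. For neither direction was the share of shared calls over all genes computed. Whether the 2 populations' responses differ was not tested. In both comparisons edgeR's log2 fold changes, which use TMM scaling, lay above the log2 ratio of the mean CPM, by a median over the tested members of 0.51 in VmSC4 and 0.41 in VmSC5. No called member had the opposite direction on the CPM scale. In bulk libraries, fewer cells of a type and less RNA per cell cannot be told apart.

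After adoptive transfer, a moderate rise was seen in both stromal populations. In VmSC4-derived VmSC4 against fresh VmSC4, 17 of 36 members rose and 3 fell (47.2% and 8.33%), against 21.4% and 24.7% of all genes. In VmSC5-derived VmSC5 against fresh VmSC5, 18 rose and 2 fell (50% and 5.56%), against 23.9% and 22.4% of all genes. The median log2 fold changes were 0.45 and 0.58, against -0.02 and 0.01 over all genes. The comparisons share no libraries. They had 14 rising members in common, which were 82.4% of the rises in VmSC4 and 77.8% of those in VmSC5. Ifi27 and Ifi35 fell in both. The share of shared calls over all genes was not computed, so this overlap cannot be read as particular to the members.

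**Figure D5:**
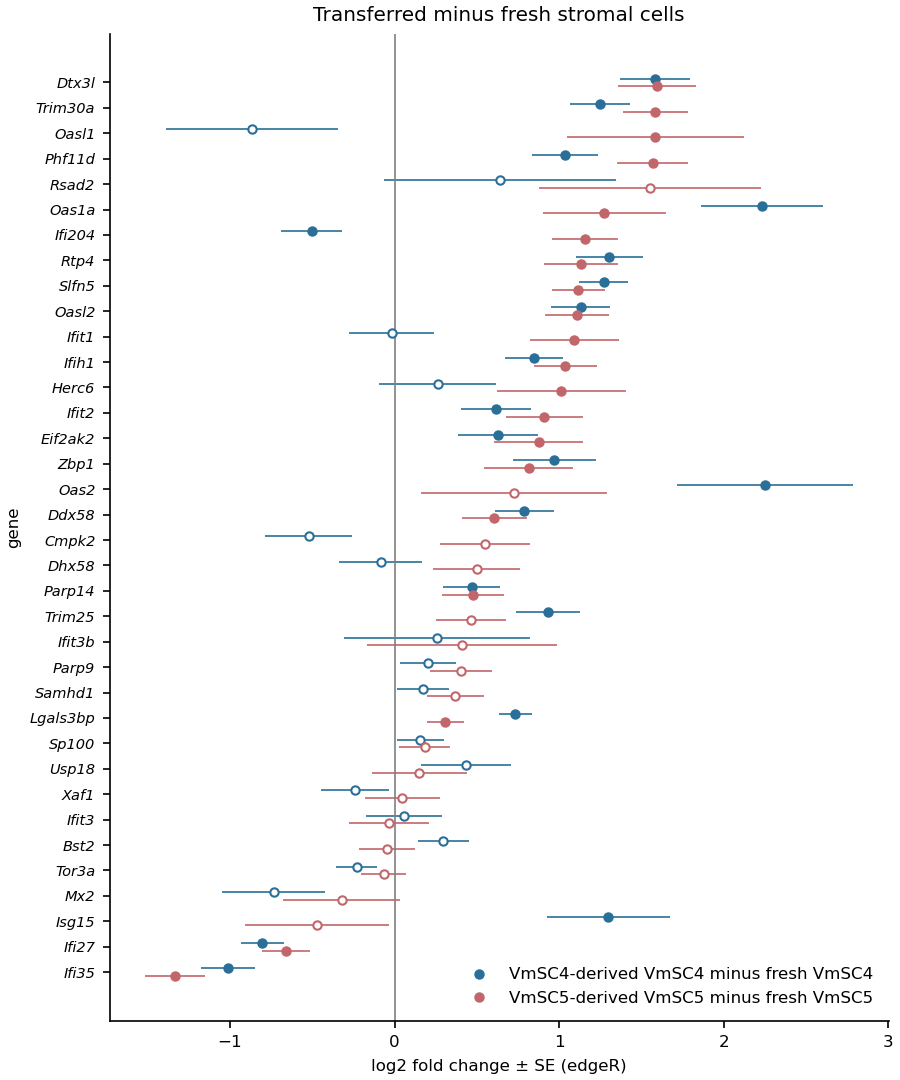
Log2 fold change (points, bars ± SE) of the 36 tested members in transferred against fresh VmSC4 and VmSC5; filled points passed the edgeR test at an adjusted p of 0.05. Most filled points lie to the positive side in both, up to 2.25, and Ifi27 and Ifi35 lie below 0 in both.

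Slfn5 read 130, 163 and 133 CPM in VmSC4-derived VmSC4 and 49.2, 58.9 and 69.9 CPM in fresh VmSC4 (log2 change 1.27 ± 0.15, edgeR adjusted p = 1.37e-07). In VmSC5-derived VmSC5 it read 123 and 146 CPM against 65.0, 67.6 and 46.7 CPM (log2 change 1.12 ± 0.16, edgeR adjusted p = 3.42e-06). Transferred and fresh libraries did not overlap in either population. Dtx3l, a ubiquitin ligase that pairs with PARP9, read 42.1, 35.6 and 60.7 CPM against 19.3, 12.2 and 16.4 CPM in VmSC4 and 35.4 and 47.6 CPM against 14.3, 14.7 and 10.7 CPM in VmSC5. Its log2 fold changes were 1.58 ± 0.21 and 1.59 ± 0.24. Trim30a read 38.8, 34.1 and 40.8 CPM against 13.9, 18.6 and 16.7 CPM, and 42 and 54.1 CPM against 17.6, 16.3 and 12.3 CPM (log2 changes 1.25 ± 0.18 and 1.59 ± 0.20). None of these overlapped.

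Rtp4 (1.30 and 1.13), Oasl2 (1.13 and 1.11), Oas1a (2.23 and 1.28), Phf11d (1.04 and 1.57) and Ifih1 (0.85 and 1.04) also rose in VmSC4 and VmSC5, in that order, on the log2 scale. Lgals3bp rose by 0.73 and 0.31, and the VmSC5 call was lost with no filter on low counts and in 4 of 5 fits without 1 library. Ifi35, a leucine-zipper protein, read 25.2, 35.6 and 35.9 CPM after transfer against 70.1, 71.6 and 56.1 CPM in VmSC4 (log2 change -1.01 ± 0.16) and 38.6 and 29.2 CPM against 87.2, 76.0 and 83.6 CPM in VmSC5 (-1.33 ± 0.18). Ifi27 changed by -0.80 ± 0.13 and -0.66 ± 0.14. The fallers were thus clear of the fresh libraries in both populations.

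Of the classical markers, Ddx58, Isg15 and Oas2 were called up in VmSC4, and Ddx58 and Ifit1 in VmSC5. Ddx58 rose by 0.79 and 0.61 in VmSC4 and VmSC5, and the VmSC5 call was lost without fresh replicate 3 and without either transferred library. Isg15 was called in VmSC4 (6.81, 11.7 and 8.33 CPM against 4.71, 2.23 and 3.77 CPM, log2 change 1.30 ± 0.37, edgeR adjusted p = 0.0061), as was Oas2 (2.25 ± 0.54), and in VmSC5 Isg15 gave -0.47 and Oas2 0.73, neither called. Ifit1 was called in VmSC5 (45.9 and 32.9 CPM against 16.0, 17.6 and 19.8 CPM, log2 change 1.09 ± 0.27, edgeR adjusted p = 0.00198) and gave -0.02 in VmSC4. Bst2, Usp18 and Rsad2 were called in neither, and Mx1 was too low to test. Whether the responses of the 2 populations differ was not tested. Without VmSC5-derived VmSC5 replicate 1, 13 of the 20 calls in VmSC5 were kept, and Ddx58, Eif2ak2, Herc6, Ifit1, Lgals3bp, Oasl1 and Parp14 were lost. Without replicate 2, 13 were kept as well, and Ddx58, Herc6, Lgals3bp, Oas1a, Oasl1, Parp14 and Zbp1 were lost.

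Ifi204 changed in opposite directions. It read 175, 129 and 152 CPM in VmSC4-derived VmSC4 against 195, 264 and 202 CPM in fresh VmSC4 (log2 change -0.50 ± 0.18, edgeR adjusted p = 0.0310), and 234 and 189 CPM in VmSC5-derived VmSC5 against 124, 88.2 and 63.4 CPM in fresh VmSC5 (1.16 ± 0.20, edgeR adjusted p = 0.000123). The transferred populations were thus closer to each other than the fresh ones. The fall in VmSC4 was lost without any 1 of 4 libraries, fresh VmSC4 replicate 2 or 3 or transferred replicate 2 or 3.

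Irf7 rose in both comparisons (log2 changes 0.98 and 1.24), and Socs1, a feedback inhibitor of JAK kinases, fell (-1.27 and -1.90). Of the signalling list 7 rose and 4 fell in VmSC4, and 4 rose and 4 fell in VmSC5. Interferon gamma genes rose in 17 and 8 of 24 cases and fell in 0. The stromal marker list moved too, with 4 of 6 rising and 1 falling in each. Adipocyte genes fell in 2 of 4 tested cases in each. In VmSC5, 3 of 4 endothelial genes rose, from a sum of 98.2 to 130.7 CPM to 195 to 249 CPM, and 2 of 3 macrophage genes rose, from 3.91 to 5.53 CPM to 11.8 to 12.7 CPM; in VmSC4, 2 of 4 endothelial genes rose and 1 of 3 macrophage genes fell. The part of these markers was not tested. Total counts were lower in transferred libraries (1967123 to 5044946) than in fresh ones (8527769 to 12514783), and the part of depth was not tested.

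Among the transferred populations the members hardly differed. Only Lgals3bp was called in VmSC4-derived VmSC5 against VmSC4-derived VmSC4, where it read 545, 561 and 542 CPM against 427, 449 and 419 CPM (log2 change 0.43 ± 0.10, edgeR adjusted p = 0.0285), against 0.746% of all genes called up and 1.03% called down. The libraries did not overlap, yet the call was lost in each fit without 1 of the 6 libraries. Bst2 (0.45), Ifit1 (0.45), Rsad2 (0.42), Oas2 (0.19), Usp18 (0.03), Ddx58 (-0.01) and Isg15 (-0.30) were not called, and Mx1 was too low to test. Between VmSC4-derived VmSC5 and VmSC5-derived VmSC5, 0 of 36 members were called by edgeR, against 0.523% and 0.624% of all genes. There, 3 members had an unadjusted p under 0.05 and DESeq2 called 1, Lgals3bp, at 545, 561 and 542 CPM against 437 and 447 CPM. Ifit1 gave -0.67, Isg15 0.84, Rsad2 -1.12, Oas2 0.50, Usp18 -0.29, Bst2 0.24 and Ddx58 0.03 on the log2 scale, none called, and Mx1 was too low to test.

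Fresh VmSC5 and fresh VmSC4 differed for 5 of 36 members, 4 up and 1 down (11.1% and 2.78%), against 7.41% and 11% of all genes. Ifi204 read 124, 88.2 and 63.4 CPM in VmSC5 and 195, 264 and 202 CPM in VmSC4 (log2 change -1.18 ± 0.18, edgeR adjusted p = 0.000201). Lgals3bp read 358, 330 and 343 CPM against 247, 253 and 290 CPM (0.47 ± 0.10, edgeR adjusted p = 0.00183), and Bst2 read 51.8, 48.0 and 52.8 CPM against 35.2, 44.2 and 31.7 CPM (0.55 ± 0.15, edgeR adjusted p = 0.0101). None of the 3 genes overlapped between the populations. Oas1a (1.13 ± 0.36), from a low level, and Ifit3 (0.65 ± 0.21) were called too, and each call was lost without 1 or other of several libraries. Usp18 (0.61), Oas2 (1.21), Isg15 (0.64), Rsad2 (0.63), Ddx58 (0.14) and Ifit1 (0.01) were not called, and Mx1 was too low to test. The median over members was 0.09, against -0.02 over all genes.

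In floating cells, 2 of 37 members rose in Foxp3-DTR+ relative to Foxp3-DTR- mice and 0 fell, against 0.491% of all genes called up and 1.94% called down. Zbp1 read 25.4 and 29.9 CPM against 5.90 and 3.62 CPM (log2 change 3.02 ± 0.71, edgeR adjusted p = 0.0264). Bst2 read 59.9 and 89.3 CPM against 19.2 and 16.2 CPM (2.60 ± 0.65, edgeR adjusted p = 0.0375). Usp18 read 9.75 and 15.5 CPM against 3.20 and 2.01 CPM, clear of overlap but short of the threshold (2.80 ± 0.77, edgeR adjusted p = 0.0583). The other classical members gave mixed values: Rsad2 read 3.20 and 1.91 CPM against 5.90 and 8.18 CPM, Ddx58 19.5 and 6 CPM against 29.3 and 35.3 CPM, and Ifit1 8.94 and 12.9 CPM against 4.72 and 15.7 CPM. Isg15 (0.65) and Oas2 (-0.62) were not called, and Mx1 was too low to test. The median log2 fold change was 0.56, against -0.04 over all genes, and here too edgeR's values lay above the log2 CPM ratios, by a median of 0.41.

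With 2 libraries a group these calls were fragile. DESeq2, and likewise edgeR with RLE scaling, called 4 members up and 1 down. Without either Foxp3-DTR- library 0 were called, without Foxp3-DTR+ replicate 2 the calls numbered 14 and without Foxp3-DTR+ replicate 3 they numbered 5. Irf7 (1.86, edgeR adjusted p = 0.118) was not called. Interferon gamma genes rose in 9 of 24 cases, led by Gbp10 (log2 change 5.02), Iigp1 (4.58), Igtp (4.52) and Psmb9 (3.57). All 5 endothelial genes fell in Foxp3-DTR+ cells, as did 4 of 5 stromal genes. The 8 macrophage genes summed to 146 and 99.8 CPM in Foxp3-DTR+ and to 338 and 414 CPM in Foxp3-DTR- libraries. The part of these cells in the values of Bst2 and Zbp1 was not tested.

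Sorted Treg carried a different profile of the members. Samhd1 was at 591 to 692 CPM in the 6 Treg libraries, above its level in the cultures with Treg (326 to 359 CPM), Sp100, a nuclear body protein, was at 428 to 508 CPM and Ddx58 at 116 to 169 CPM. Ifi204 (0 to 1.02 CPM), Phf11d (0 to 1.13 CPM) and Oasl2 (0 to 3.36 CPM) were near 0. Between Osm KO and wild-type Treg, 0 of 32 tested members were called by edgeR, against 0.00876% of all genes called up and 0.0438% called down, with 2 members at an unadjusted p under 0.05 and 0 called by DESeq2. Ifit1 read 32.4, 13.3 and 55.2 CPM in KO and 10.4, 18.9 and 10.5 CPM in wild type (log2 change 1.41 ± 0.45, edgeR adjusted p = 0.367), and Isg15 read 4.55, 31.2 and 13.4 CPM against 6.08, 6.29 and 12.0 CPM (1.00 ± 0.63, edgeR adjusted p = 0.640). Both genes overlapped between the genotypes. Mx1 gave 0.43, Rsad2 0.29, Usp18 0.28, Ddx58 0.20 and Bst2 -0.16, none called, and Oas2 was too low to test.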

How the data were processed

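The measurements were RNA-seq read counts per gene in 42 libraries of 15 groups. The deposited table held whole-number read counts, not normalized; STAR 2.7.3a, featureCounts and build mm10 are named per the submitters' processing notes, and the annotation release and strand setting are not given in the sources used here. Groups were taken from the sample labels, and 0 table columns lacked a sample. The members and the comparison lists were chosen with earlier results of these data known.

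CPM used the column totals. Differential expression was computed in R 4.3.3 with edgeR 4.0.16: TMM scaling, the filterByExpr filter (minimum count 10), quasi-likelihood fits with robust dispersion and Benjamini-Hochberg adjustment over all genes tested, called at 0.05, for 13 comparisons. Cultures with fresh cells, transferred with fresh cells, and the Treg with the OSM experiment (for the difference of responses) shared fits. The edgeR fit was also run on simulated counts that gave all genes the same dispersion. Such a run checks the code and does not bear on calls from low counts or from uneven libraries. As alternatives, a replicate block, the 2 groups alone, each replicate left out, the table without the low-count filter, DESeq2 1.42.0 and RLE scaling were run; a crossed block for the floating cells was chosen after seeing the data. Precision follows depth (1072147 to 12514783 counts), and intervals and floors cover counting error only.

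Named in every comparison were Ifit1, Isg15, Mx1, Oas2, Rsad2, Usp18, Bst2 and Ddx58 with Stat2, Irf7 and Irf9 where they bear on it; 1 further gene of that rule is not reported here. Up to 8 called members per direction with the smallest adjusted p, the 5 highest and 5 lowest per kb and, in 8-day cultures, any member were added. Other genes named, such as Ifi44 and Socs1, were chosen after their values were seen.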

Additional observations from a re-analysis of the deposited data

Results flagged for a closer look

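The OSM response and the Treg response of VmSC5 cultures differed by a direct test (edgeR) for 37 of the 39 genes, all lower in the OSM response. Of the 39, 19 were too low to test in the OSM experiment alone, and for those the difference mostly restates the rise with Treg. The differences of log2 fold changes with the smallest adjusted p were -6.97 for Bst2, -3.73 for Lgals3bp, -2.27 for Ifi204, -5.16 for Ddx58, -3.71 for Slfn5, -6.80 for Phf11d, -4.27 for Sp100 and -2.91 for Ifi35. The experiments had separate controls, and what differed between them besides the treatment cannot be told apart from it.

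Ifi204 moved in opposite directions after transfer, with every transferred VmSC4-derived VmSC4 library below fresh VmSC4 (log2 fold change -0.50) and every VmSC5-derived VmSC5 library above fresh VmSC5 (1.16). The difference between these responses was not tested.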

How the results depend on the processing

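Of 117 called fold changes that were followed, 96 kept direction and call under every alternative run. They were those of the genes named by rule and of up to 8 called members per direction with the smallest adjusted p. Called members outside this choice are not in the count. The members called in VmSC4-derived VmSC5 against VmSC4-derived VmSC4 (1 in the reported fit) numbered 0 in every fit without 1 replicate and 2 with the 2 groups alone. Against VmSC5-derived VmSC5 (0) they numbered 1 by DESeq2 and 1 with the 2 groups alone. For VmSC5-derived VmSC5 against fresh VmSC5 (20), fits without 1 replicate gave 13 to 18, and for 8-day against fresh VmSC4 (13) the 2 groups alone gave 22. For 8-day VmSC5 against 8-day VmSC4 (0) the calls numbered 1 by DESeq2, 7 with no filter and 0 to 21 without 1 replicate. In floating cells (2) they numbered 5 with RLE scaling, 5 by DESeq2, 4 with no filter and 0 to 14 without 1 replicate, where the lone library of a group is assumed to vary like the others. In Osm KO against wild-type Treg (0) no filter gave 1. Changing sign without a call in floating cells were the log2 fold changes of Stat2 (from -0.0248 without Foxp3-DTR+ replicate 2 to 1.40 without Foxp3-DTR+ replicate 3) and Ifit1 (from -0.0874 without Foxp3-DTR+ replicate 3 to 1.67 without Foxp3-DTR- replicate 3). The cause was not tested, save that fits without 1 replicate have fewer samples.

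Same-numbered replicates did not deviate together (r from -0.083 to 0.064 outside the floating cells, -0.397 in them), so the numbers were not taken as pairs. A replicate block gave 1 call between the 8-day groups and 0 in floating cells, where a block with the numbers crossed gave 5.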
